A study of Neurospora crassa with 10 samples.

Results

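The ribosomal DNA (rDNA) array at the left end of Linkage Group (LG) V of Neurospora crassa holds 134 of the 9866 genes in the deposited annotation of the corrected genome assembly nc14. Its members are all records annotated as ribosomal RNA (rRNA), typed by their product as 18S, 5.8S or 28S rRNA and sorted by position. The gap between an 18S gene and the 5.8S gene after it was taken as the first internal spacer, the gap between a 5.8S and a 28S gene as the second internal spacer, and the gap between a 28S gene and the next 18S gene as the intergenic spacer. A series of 18S, 5.8S and 28S genes was called a complete unit where each gene had at least 90% of the median length of its type, and 32 of 41 such series were complete. Libraries of in situ Hi-C, which records contacts between chromosomal segments inside nuclei, were made from germinated conidia of the wild type strains N150 and N3752. The chromatin was cut with DpnII, with MseI or with both enzymes, the libraries were amplified by 8, 15 or 23 PCR cycles where the labels give a number, and the labels describe 10 datasets. MseI Hi-C guided the placement of supercontigs, including those at the left end of LG V, into nc14. The annotation has no value per library, so no replicate error or sequencing depth applies, no groups of libraries were compared, and every value here describes 1 assembly.

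In eukaryotes, RNA polymerase I transcribes the 18S, 5.8S and 28S rRNA as a single precursor, and the internal spacers are removed as this precursor is processed. The 18S rRNA belongs to the small ribosomal subunit, while the 5.8S and 28S rRNAs belong to the large one. Intergenic spacers, as defined here, reach from a 28S gene to the next 18S gene and hold sequences that start and end transcription. Where transcription starts and ends within them was not measured here. The tandem rDNA array forms the Nucleolus Organizer Region (NOR), around which the nucleolus assembles, and in Neurospora the NOR is on LG V.

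The array runs from base 187 to base 383619 of LG V, a span of 383 kb, and all 134 records are on the plus strand. It has 44 18S, 42 5.8S and 48 28S records. The first record is the 28S gene NCU15760 (3199 bp) and the last is the 5.8S gene NCU15821 (129 bp), so the array starts and ends inside a unit. The 28S records took up 36.3% of the span, the 18S records 19.7% and the 5.8S records 1.68%. Intergenic spacers took up 37.8%, the first internal spacers 2.22% and the second internal spacers 0.483%, and gaps at places where the order of types is broken made up the other 1.78%. Each spacer length depends on where the annotation sets the ends of the genes beside it. The RNAs themselves were not measured, and the nc14 sequence was not analysed here.

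**Figure D1:**
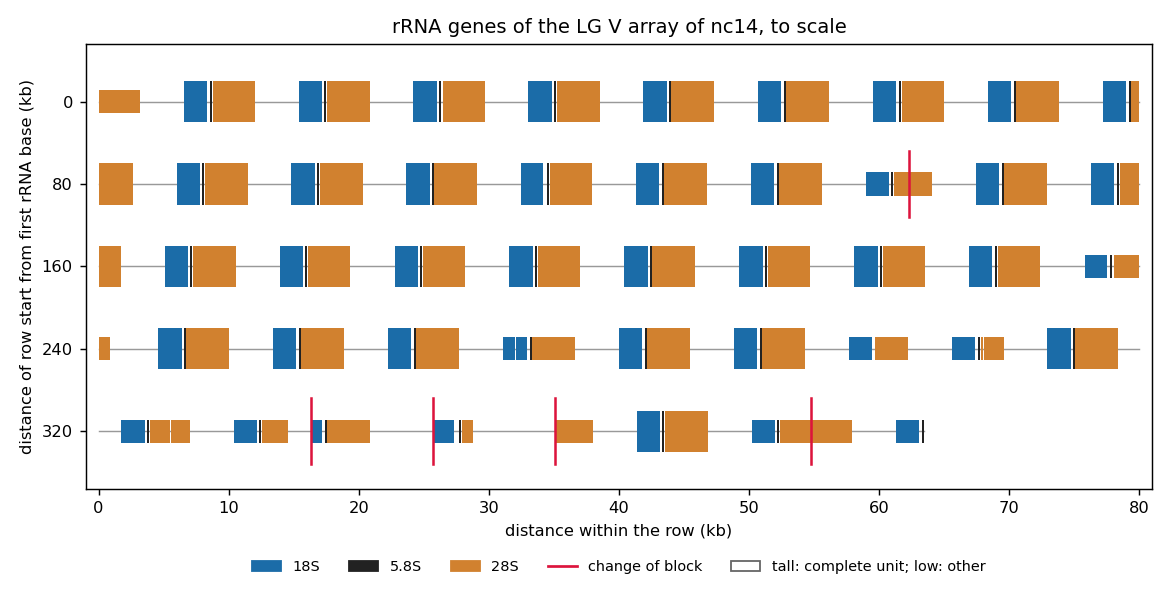
The 134 rRNA genes drawn to scale in rows of 80 kb, with the distance within a row in kb across and the distance of the row start from the first rRNA base in kb down the page; tall boxes are the 32 complete units, low boxes are the other records, and red lines are the 5 changes of block defined further on. Complete units follow each other without a break in runs of 15 and 10 on the left, while most low boxes are in the last rows.

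The 5.8S gene was the least variable of the 3 genes. Of 42 5.8S records 41 had 154 bp, and NCU15821 at the end of the array had 129 bp. The 18S records had a median of 1789 bp (876 to 1809 bp), and 41 of 44 reached the length limit of 1610 bp. The 28S records varied most, with a median of 3272.5 bp (124 to 3320 bp), and 36 of 48 reached the limit of 2945 bp. For the 28S gene, the record closest below the limit was NCU15814 (2909 bp, 88.9% of the median) and the one closest above was NCU15819 (3176 bp, 97.1%). For the 18S gene, these were NCU15735 (898 bp, 50.2%) and NCU15825 (1652 bp, 92.3%). No 5.8S record lay between 129 bp (83.8%) and 154 bp.

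The first internal spacer was nearly constant. Over all 42 pairs of 18S and 5.8S genes it had a median of 191 bp (interquartile range 191 to 205 bp, lowest 191 bp, highest 328 bp), and 29 pairs had exactly 191 bp. In complete units it was 191 bp in 23 of 32, 205 bp in 3, 206 bp in 2 and 225 bp in 2, and the other two had 210 and 286 bp. No value lay below 191 bp, so every departure from the most frequent length was an increase. The longest, 328 bp, lies between the 18S gene NCU15825 (1652 bp) and the 5.8S gene NCU15826. The next longest, 286 bp, is in the complete unit of NCU15796 (18S, 1700 bp), NCU17393 (5.8S) and NCU15798 (28S), whose 18S gene is the shortest of any complete unit.

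The second internal spacer was the shortest and, relative to its length, the most variable spacer. Over all 41 pairs of 5.8S and 28S genes its median was 30 bp (interquartile range 17 to 75 bp, lowest 17 bp, highest 133 bp), and 14 pairs had exactly 17 bp. In complete units 18 of 32 spacers were under 40 bp, 6 had 40 to 60 bp and 8 were over 60 bp, and the most frequent values were 17 bp (11 units) and 90 bp (4 units). Units with short and long second spacers lay side by side. In the first 6 units from the left it had 90, 48, 90, 49, 28 and 17 bp. The longest, 133 bp, lies between NCU17318 (5.8S) and NCU17319 (28S) in a unit that is not complete.

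Intergenic spacers were long and had nearly the same length throughout. Over all 43 pairs of a 28S gene and the next 18S gene the median was 3363 bp (interquartile range 3358 to 3373 bp). This interquartile range was 0.446% of the median, against 7.33% for the first and 193% for the second internal spacer. In bp, the ranges of the intergenic and the first internal spacer were alike, at 15 and 14 bp, so their percentages differ through the medians. The shortest intergenic spacer (1706 bp, NCU15759 to NCU15815) and the longest (4842 bp, NCU15817 to NCU15825) both stood far from the others. The remaining 41 ran from 3346 bp (NCU15766 to NCU17362) to 3688 bp (NCU17319 to NCU15726). Where, in addition, both genes beside the spacer were of full length, 34 spacers ran from 3346 to 3428 bp (median 3362.5 bp, SD 15.8 bp). The upper end of this range, 3428 bp, follows NCU15718 and precedes NCU15719.

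**Figure D2:**
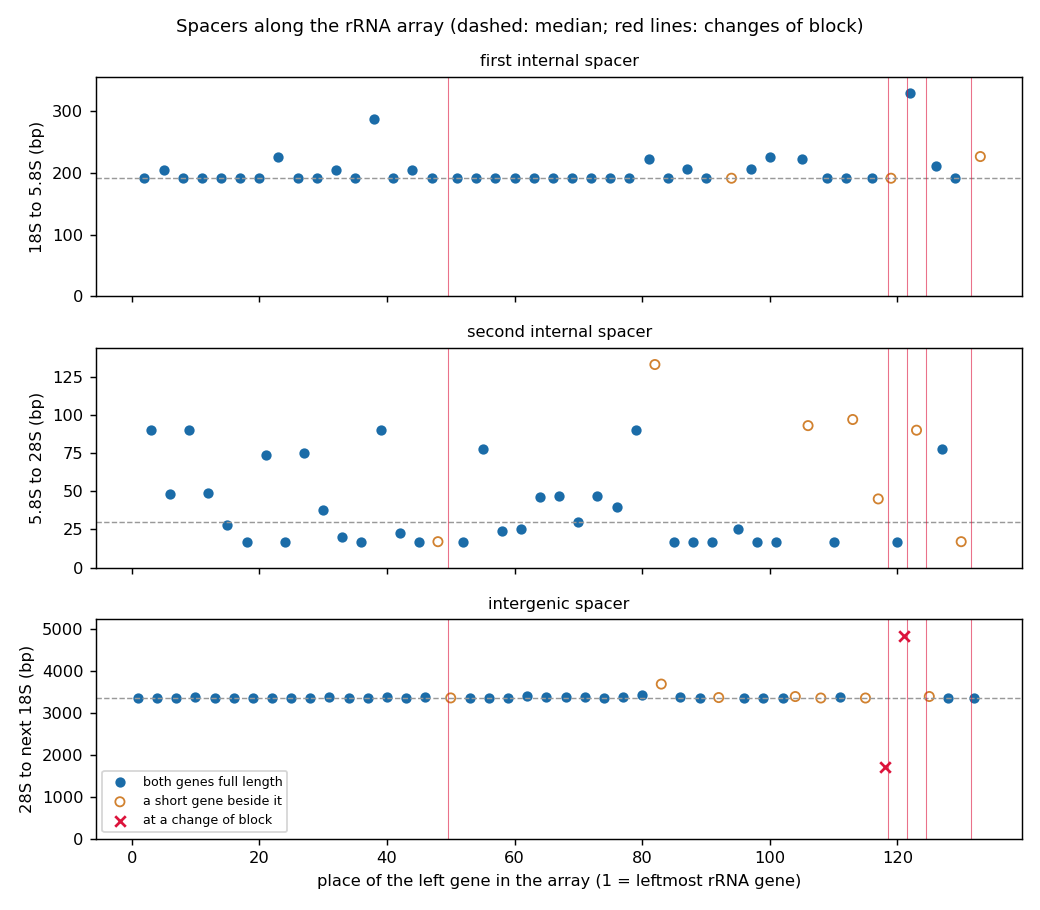
Length in bp of the first internal, second internal and intergenic spacers against the place of the left gene in the array (1 is the leftmost rRNA gene), with filled points for full-length genes on both sides, open points for a short gene beside the spacer, crosses for spacers at a change of block, a dashed line at the median and red lines at changes of block. The first internal spacer stays at or above 191 bp, the second is scattered from 17 to 133 bp along the whole array, and the intergenic spacer leaves its band only at the 2 crosses (1706 and 4842 bp) and, by less, at 3688 bp.

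Much of the variation in the internal spacers was matched by an opposite variation in the gene beside them. In complete units the first internal spacer had an SD of 18.6 bp and the 18S gene an SD of 18.3 bp, yet the distance from the start of the 18S gene to the start of the 5.8S gene had an SD of 6.15 bp (1964 to 2000 bp, n = 32). This distance was 1980 bp in 12 units and 1986 bp in 11. All 9 complete units with a first internal spacer over 191 bp had an 18S gene under the median length of 1789 bp, as did 3 of the 23 units with a spacer of 191 bp. The unit with the 286 bp spacer is an example. Its 18S gene of 1700 bp and its spacer add up to 1986 bp. At the other end of the range, NCU17362 has the longest 18S gene (1809 bp), a spacer of 191 bp and the longest sum, 2000 bp.

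The same held for the 28S gene and the second internal spacer. In complete units the spacer had an SD of 27.1 bp and the 28S gene an SD of 28.2 bp (3223 to 3320 bp). The distance from the end of the 5.8S gene to the end of the 28S gene had an SD of 8.85 bp (median 3327 bp, 3295 to 3337 bp, n = 32). The SD of the spacer was thus 3.06 times that of the sum, and for the 18S side the ratio was 3.03. Across the 32 complete units, 28S length and second spacer had a Pearson r of -0.95 and a Spearman rho of -0.90, and 18S length and first spacer had r of -0.94 and rho of -0.74. These correlations are a description only, since a gene and its spacer share a boundary and a shift of that boundary lengthens one by what it takes from the other. Whether the boundaries differ in the sequence or in the annotation alone was not tested.

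**Figure D3:**
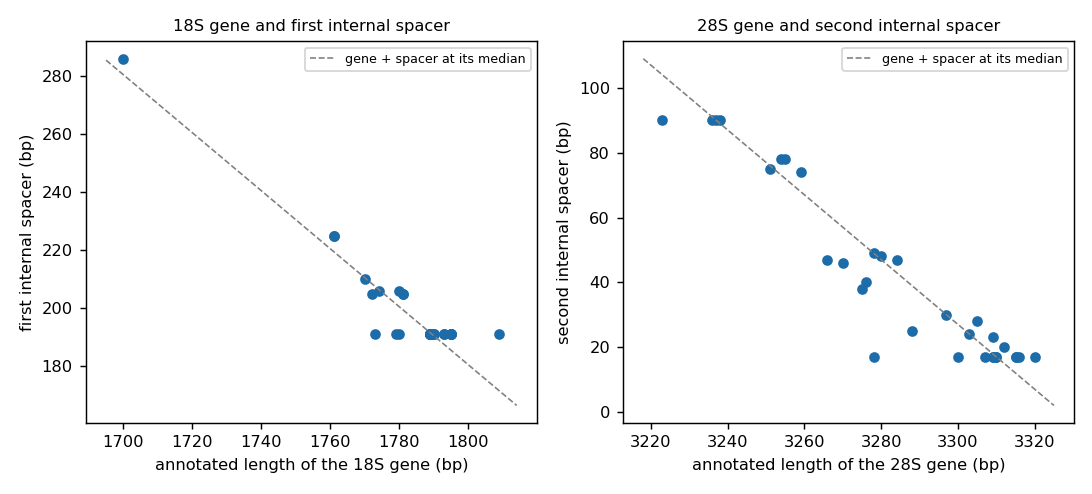
Length of the first internal spacer against the 18S gene (left) and of the second internal spacer against the 28S gene (right), both in bp, with 1 point for each of the 32 complete units and a dashed line where gene plus spacer equals its median. On the left, 23 of the 32 points form a flat row at 191 bp, which ends at an 18S gene of 1809 bp off the line. The other 9 lie near the dashed line, up to 286 bp for an 18S gene of 1700 bp. On the right the points lie along the dashed line, from 3223 bp with 90 bp to 3320 bp with 17 bp for the 28S gene.

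No complete unit had its 3 genes and both internal spacers at the most frequent values at once. In 6 units both internal spacers did, and in 4 of these the 18S and 5.8S genes did as well. The leftmost of these 4, at 50884 to 56349 of LG V, consists of NCU15776 (18S, 1789 bp), NCU17372 (5.8S, 154 bp) and NCU15778 (28S, 3315 bp), with internal spacers of 191 and 17 bp and an intergenic spacer of 3362 bp after it. From the start of the 18S gene to the end of the 28S gene it spans 5466 bp. Complete units spanned a median of 5462.5 bp (5429 to 5480 bp, SD 11.3 bp, n = 32), and the other 9 units spanned 2351 to 5129 bp. The length limit sorted these units, so their shorter span is a description and not a finding.

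The repeat, from one 18S start to the next, had a median of 8825 bp over all 43 distances. Between consecutive complete units it was 8826.5 bp (8814 to 8849 bp, SD 8.75 bp, n = 26), and the intergenic spacer made up 38.1% of it. Measured between 5.8S starts, the repeat was more regular. Those 26 distances had a median of 8827 bp (8822 to 8845 bp, SD 5.42 bp), and 23 lay within 5 bp of it, against 14 of 26 for 18S starts. Over all 41 distances between 5.8S starts, 32 lay within 50 bp of their median, and the others included values down to 5017 bp and up to 16763 bp.

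**Figure D4:**
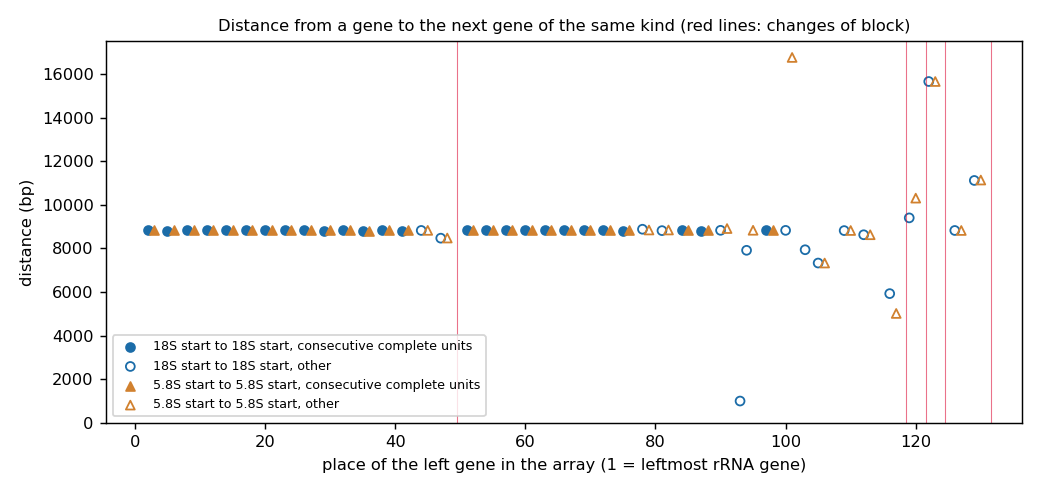
Distance in bp from each 18S gene to the next 18S gene (circles) and from each 5.8S gene to the next 5.8S gene (triangles) against the place of the left gene in the array, filled for consecutive complete units and open for all others, with red lines at changes of block. Filled points form a flat line between 8814 and 8849 bp, and most points far from it, from 998 to 16763 bp, lie beyond place 90.

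Complete units were not spread evenly. They formed 6 runs of 15, 10, 3, 2, 1 and 1 units. The longest goes from NCU15761 to NCU15804 (6740 to 135779 of LG V, 129040 bp) and the next from NCU15690 to NCU15718 (147620 to 232539). Of the 16 records under the length limit, 14 were among the 67 records on the right and 2 among the 67 on the left. Those on the left were the 28S genes NCU15807 (1174 bp) and NCU15689 (1779 bp), which face each other across 9 bp. Median spacers were alike on both sides, but their interquartile ranges were wider on the right. Split at the middle of the list of 18S genes, the right and the left side had median intergenic spacers of 3366 and 3362 bp, first internal spacers of 191 and 191 bp, and second internal spacers of 30 and 33 bp. The interquartile ranges of intergenic spacers were 3358.75 to 3390.25 bp on the right and 3357.5 to 3369 bp on the left. For first internal spacers they were 191 to 213 bp and 191 to 191 bp. For second internal spacers they were 17 to 84 bp and 17.75 to 67.75 bp.

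The unit of NCU15719, an 18S gene, was not complete and ends the run of 10 complete units on its left. It lies at 235968 to 241096 of LG V and holds NCU15719 (1729 bp), the 5.8S gene NCU17318 (154 bp) and the 28S gene NCU17319 (2891 bp, below the limit). Its first internal spacer was 222 bp, its second was the longest of the array, and the intergenic spacers before and after it had 3428 and 3688 bp. Its 18S start lay 1951 bp before its 5.8S start, less than in any complete unit (1964 to 2000 bp). From the end of its 5.8S gene to the end of its 28S gene it had 3024 bp, less than in any complete unit (3295 to 3337 bp). From the end of that 5.8S gene to the next 18S gene it had 6712 bp, against 6674 to 6741 bp in complete units. The 6741 bp belong to the complete unit on its left and end at NCU15719 itself. The next highest value, 6708 bp, was in the complete unit of NCU15699. The distances from NCU17318 to the 5.8S genes of the units on both sides were 8846 bp each, just above those between consecutive complete units (8822 to 8845 bp). The short 28S gene of the NCU15719 unit thus lay between long spacers. The sum of the 3 was above that of every complete unit except the unit on its left. The complete units beside it were NCU15716, NCU15717 and NCU15718 on the left (first and second internal spacers of 191 and 90 bp) and NCU15726, NCU17321 and NCU17322 on the right (191 and 17 bp).

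Of 133 pairs of neighboring records, 126 followed the order 18S, 5.8S, 28S, 18S, and 7 did not. At 3 of these places, pieces of the same rRNA were 100 to 104 bp apart. The 18S genes NCU15735 (898 bp) and NCU15736 (876 bp) together spanned 1874 bp, 105% of the median 18S length. The 28S genes NCU15755 (1516 bp) and NCU15756 (1417 bp) spanned 3037 bp, 92.8% of the median 28S length. The third pair, NCU15748 (124 bp) and NCU15749 (1523 bp), spanned 1747 bp, or 53.4%. The adjoining 28S genes NCU15807 and NCU15689 spanned 2962 bp, or 90.5%. In contrast, NCU15808 (2431 bp) and NCU15819 (3176 bp), 2 bp apart, spanned 171% of a 28S gene, and NCU15827 (820 bp) and NCU15814 (2909 bp) were separated by 6314 bp.

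At the remaining place a 5.8S gene was not annotated. The 18S gene NCU15744 (1793 bp) is followed after 198 bp by the 28S gene NCU15745 (2558 bp), and together they span 4549 bp, against a median of 5462.5 bp in complete units. The 18S gene is of full length and the 28S gene is short. Over the whole array 3 18S, 1 5.8S and 12 28S records were under the limit, and the remaining short 28S gene is NCU15759 (2038 bp). The short 18S gene NCU15815 (883 bp) starts a unit whose 5.8S and 28S genes (NCU15816 and NCU15817) are of full length. In total 22 full-length records lay outside complete units.

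The serial numbers of the RefSeq transcript identifiers that the rRNA records carry were not used to choose or to sort the records. They run without a gap in 6 blocks of 49, 69, 3, 3, 7 and 3 records from left to right, and in the block of 7 they fall rather than rise. The blocks hold 15, 16, 0, 0, 1 and 0 complete units and 1, 10, 1, 1, 2 and 1 short records. This grouping was made after the spacer lengths had been seen. The 5 changes from one block to the next coincided with 3 of the 7 places out of order (NCU15807 to NCU15689, NCU15827 to NCU15814 and NCU15808 to NCU15819) and with the shortest and the longest intergenic spacer. The other 4 places out of order lie inside the block of 69 records. Whether a block equals a supercontig was not tested.

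Some records carry a mark for an open end, meaning that the gene may continue past the annotated base. There were 10 of these, of which 9 were short and 1, NCU15819, was of full length. Both 18S pieces NCU15735 and NCU15736 were marked at each end, as was the 28S piece NCU15748. The other 7 short records had no such mark. The mark also keeps the position of that base in the sequence from which the record was taken, and this gave the first base of the right-hand block at 4 of the 5 changes. The block that starts with NCU15689 begins at base 142474, directly after the last base of NCU15807. The block of NCU15815 begins at 334782, directly after NCU15759, so that the 1706 bp of the shortest intergenic spacer belong to 1 block. The longest intergenic spacer is divided at 344179, with 3131 bp on its left and 1711 bp on its right. Within blocks, complete repeats stayed regular. Between 5.8S starts of consecutive complete units, the block of 49 records had an SD of 2.37 bp (8822 to 8830 bp, n = 14) and the block of 69 records an SD of 7.38 bp (8823 to 8845 bp, n = 12). In the block of 69 records the intergenic spacers after NCU15701, NCU15703, NCU15706 and NCU17322 had 3395, 3389, 3387 and 3388 bp. Those between consecutive complete units of the block of 49 records had at most 3373 bp. The medians between consecutive complete units were 3367.5 bp (n = 12) in the block of 69 records and 3361.5 bp (n = 14) in that of 49.

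Compared with the rest of the annotation, the intergenic and first internal spacers varied little, and the array was on a single strand. Between neighboring protein-coding genes, the 9723 gaps had a median of 635 bp (interquartile range 213.5 to 1585 bp). This range was 216% of the median. For protein-coding neighbors on the same strand it was 178% (median 827 bp, n = 4359). The second internal spacer, at 193%, lay between these values and was no more regular. Of the 9723 gaps, 9.56% were longer than the median intergenic spacer. The median first internal spacer was at least as long as 22.9% of them, and the median second internal spacer as long as 13.6%. Overlapping neighbors are counted in these shares as negative gaps. The measures are also unlike, since internal spacers lie within a unit and the protein-coding gaps lie between separate genes. No gap in the array exceeded 10 kb. The 134 records on the plus strand compare with 21 for the longest series of protein-coding genes on 1 strand. These counts are unlike, since the 134 records include 41 series of 18S, 5.8S and 28S genes. Strands were read as nc14 gives them, and the orientation of the blocks was not tested. Genes of rRNA covered 57.7% of the array, and protein-coding genes covered 57.0% of LG V to its right. These are descriptions, since neighboring gaps of 1 assembly are not replicates.

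**Figure D5:**
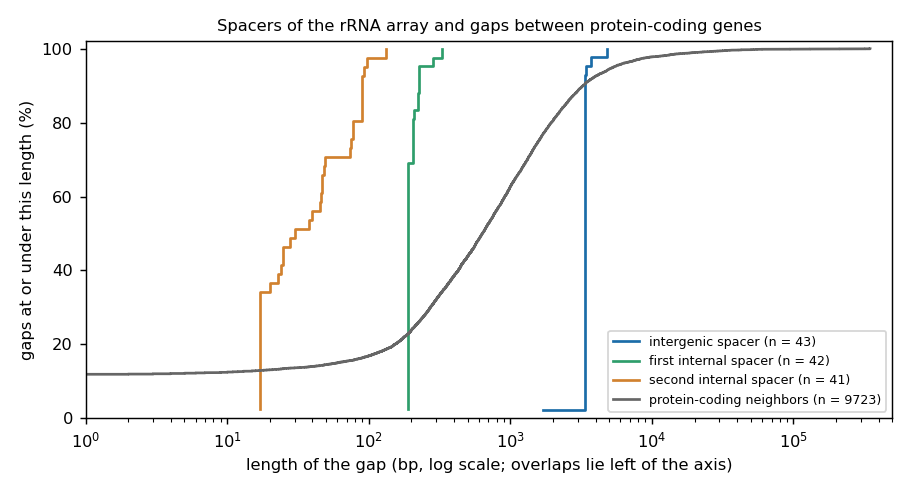
Percentage of gaps at or under a given length (bp, log scale) for the intergenic spacer (n = 43), the first internal spacer (n = 42), the second internal spacer (n = 41) and gaps between neighboring protein-coding genes (n = 9723), with overlapping genes left of the axis. The intergenic and first internal spacers rise almost vertically at 3363 and 191 bp, whereas the second internal spacer rises in steps and the protein-coding gaps rise slowly over several orders of magnitude.

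Besides rRNA, the array holds 2 annotated tRNA genes. They are the only tRNA genes of the annotation, whose other genes are the 134 rRNA and 9730 protein-coding genes. No tRNA gene outside the array can therefore be set beside them. NCU15073 (tRNA-Pro, minus strand, 21399 to 21488) lies in the intergenic spacer between NCU15766 and NCU17362, which at 3346 bp was the shortest away from a change of block. NCU15074 (tRNA-Asn, plus strand, 363036 to 363109) lies inside the 18S gene NCU17409 (1770 bp) of a complete unit. Other genes of rRNA synthesis, such as 5S rRNA genes and the subunits of RNA polymerase I, were not listed here, since the names used to find them were not given in the annotation or in the RefSeq table of assembly NC12. The table has 212 rRNA genes. All 134 members were found in it by NCU number, with the same length in 134 of 134. It places 77 rRNA genes on the 7 LGs, and 0 of these are in the nc14 annotation. By LG these are 6 on LG I, 22 on LG II, 9 on LG III, 14 on LG IV, 17 on LG V, 5 on LG VI and 4 on LG VII. Most are too short for the 3 types of the array. The 77 genes had a median of 116 bp (98 to 3206 bp), and 74 were shorter than the 5.8S limit of 138.6 bp. Their rRNA type is not given.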

How the data were processed

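The deposited file used here is the gene annotation of nc14, which has 81158 records. Per the deposited records, a feature has a first base and a last base on its LG, in bp and counted from 1. These positions are not normalized, and the number of columns for single samples is 0. The authors placed supercontigs guided by MseI Hi-C. The method by which gene models came to nc14 was not given in the sources used here, and a record moved wrongly would change the gaps on both its sides. The 134 rRNA records were sorted by start. Gaps were counted between the last base of a gene and the first base of the next, and a gene was of full length at 90% or more of the median of its type. Spread is the interquartile range or the SD. No test was run.

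Named genes are the ends of the array, the unit of the rRNA gene named in the paper with its neighbors, the first unit with the most frequent lengths, the genes beside the shortest and longest spacers, all short records, records out of order, the ends of the longest run and other genes in the array. Genes at changes of block, NCU17362, NCU15796 with its unit, NCU15701, NCU15703 and NCU15706, and the ends of the next longest run were added once their values had been seen. The members and lists were chosen with earlier results of these data known. Alternatives were length limits of 80% and 95%, the most frequent length in place of the median, merging of pieces up to 200 bp apart, complete units alone, each side of the array alone, the median absolute deviation, and 5.8S starts. NC12 was used only for names, neighbors, LGs, lengths and counts of rRNA genes. Python 3.11.15, numpy 2.4.6, pandas 2.3.3, scipy 1.17.1 and matplotlib 3.10.9 were used. As tested on simulated data, spacers, complete units, runs and a planted joint were recovered in 100 of 100 arrays of 90 genes.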

Additional observations from a re-analysis of the deposited data

How the results depend on the processing

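No paired analysis was possible because no library has values of its own in the annotation. Of 23 alternatives, 19 moved a median by less than the SD of its lengths or left a count or a spread within 1.5 times its value, and 4 did not. For medians this rule was wide. The SD over all lengths was 1728 bp for the distance between 18S starts and 347 bp for the intergenic spacer, so their medians could hardly count as moved. The median distance itself ran from 8824 to 8827 bp. The number of complete units was 32 as reported, 33 with a limit of 80% of the median length, 32 with a limit of 95%, 32 with 90% of the most frequent length and 36 with pieces up to 200 bp apart merged. Of the 4 units gained by merging, 1 rests on the joined 28S genes NCU15808 and NCU15819, which span 5609 bp, 171% of the median, and counts as complete since no upper length limit was set. Another rests on NCU15807 and NCU15689, which span 90.5% of the median, just above the limit. Both of these joins cross a change of block. The same merging lowered the number of places out of order to 2, against 7 as reported, since it joins neighboring pieces by construction. As the median absolute deviation, a different measure of spread, the first internal spacer had 0 bp, against an interquartile range of 14 bp, the second 13 bp, against 58 bp, and the intergenic spacer 7 bp, against 15 bp. The use of 5.8S starts was chosen after seeing the data. Lengths rest on annotated gene ends of 1 assembly, and the number of rDNA copies in the nucleus was not measured.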

Other observations

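NCU numbers did not follow the order of the array throughout. Between neighboring rRNA records the number rose by 1 in 66 of 133 pairs, rose by more than 1 in 33 and fell in 34. Records with numbers of 17000 or more were mostly 5.8S genes, with 30 among the 34 such records, beside 2 18S and 2 28S genes, and in 8 of 32 complete units the 3 genes had consecutive numbers. In the NC12 table, 3 rRNA genes (NCU15610, NCU15611 and NCU15612) precede every protein-coding gene on LG V, and 0 of these 3 are in the nc14 annotation. The table does not give their rRNA type.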
